A study of Mus musculus with 2 samples.

Results

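The 10 genes described here encode negative regulators of mitogen-activated protein kinase (MAPK) signaling. They are the dual-specificity phosphatases *Dusp1*, *Dusp2*, *Dusp4*, *Dusp5*, *Dusp6*, *Dusp10* and *Dusp16*, the Sprouty genes *Spry1* and *Spry2*, and the Sprouty-related gene *Spred1*. They were chosen by symbol, and all 10 were found among the 24421 gene symbols of both count files. RNA was measured by RNA-seq in hematopoietic stem cells (HSCs), the marrow cells that renew themselves and produce all blood lineages. The cells were sorted as CD150+ and negative for CD48, CD34 and Flt3 within the Lin- fraction positive for Sca-1 and c-kit. One library was labelled WT (C57BL/6, genotype Ezh2 +/+ CreERT+/-) and one Ezh2 KO (C57BL/6, genotype Ezh2 Δ/Δ CreERT+/-). Both came from CD45.2 donor marrow, Cre-ERT;Ezh2+/+ or Cre-ERT;Ezh2fl/fl, that had been transplanted into lethally irradiated CD45.1 recipients. Cre-ERT, a recombinase that acts only with tamoxifen, was carried by both groups, and the labels describe the same tamoxifen course for both (100 µl of 10 mg/ml intraperitoneally on each of 5 days, with the sort 1 month later). The promoter that drives Cre-ERT, the number of mice, their age and any pooling of mice are not given in the sources used here. The comparison was made to collect genes that rise in HSCs without *Ezh2*, the histone methyltransferase of Polycomb repressive complex 2.

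In the MAPK pathways, receptors for growth factors and cytokines act through RAS or stress signals on a chain of kinases that ends with ERK, JNK or p38. Activated ERK induces early response transcription factors within minutes and, with them, genes that switch the signal off. MAPK phosphatases of the DUSP family remove the activating phosphates from the threonine and tyrosine of the kinases. Sprouty and Spred proteins act further up, between the receptor and RAF. Transcripts of many of these inhibitors are short-lived and follow recent pathway activity. In HSCs, the receptor KIT signals through this pathway, among others.

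The gene counts summed to 5763118 in WT against 4157280 in the library labelled Ezh2 KO, a ratio of 1.39. With 1 library per group there was no replicate and no test could be made, so each difference below is one between 2 libraries. Intervals are exact 95% intervals that cover only the error of counting reads. Amplified reads without molecular identifiers can be copies of one molecule, so the error of counting molecules can be larger than the intervals show. *Ezh2* itself (chr6:47530139-47595341, minus strand) had 166 counts in WT against 129 in the library labelled Ezh2 KO, which came to 142.5 and 150.3 normalized counts (counts divided by the size factor of the library). Its log2 ratio, library labelled Ezh2 KO over WT as for every ratio here, was 0.08 (-0.27 to 0.42). Its level therefore did not check the label, and whether reads from the floxed part were missing was not tested. Sex-linked transcripts, looked at after their values were seen, also separated the libraries: *Xist* had 801 counts in WT against 4 in the other, whereas *Ddx3y*, *Eif2s3y*, *Kdm5d* and *Uty* had 0 in WT and 106 to 275 in the other. Sex and genotype cannot be told apart in these libraries. Of the 11 markers of HSCs and of the sort, 11 were detected and 0 differed 2-fold. Their summed level was 19646.3 normalized counts in WT against 21012.8 in the other library. The list mixes markers sorted as positive with *Cd34*, *Cd48* and *Flt3*, sorted as negative. At 1.5-fold 1 was lower, *Slamf1* for CD150 at a log2 ratio of -0.62 (-0.85 to -0.41). The 1 higher was *Flt3* at 0.95 (0.57 to 1.34). *Cd34* was at 821 and 966 normalized counts, and *Cd48* had 12 and 11 counts. Markers of other lineages differed. Of all genes tested, as defined below, 3.90% were lower and 4.91% higher by 2-fold. Of tested eosinophil markers 7 of 7 were higher by 2-fold, and their list summed to 10.3 and 3787 normalized counts, with *Prg2*, *Prg3*, *Epx*, *Ear1*, *Ear2* and *Ear6* at 0 in WT. Like any tested marker at 0 in WT, those 6 passed the filter only through the other library, so their direction was fixed in advance. Untested *Ccr3* and *Siglecf* each had 5 and 4 counts. Of neutrophil markers 7 of 10 were higher (6957 and 15791), of B lymphoid markers 5 of 6 (239 and 491) and of erythroid markers 4 of 6 (350 and 1023). The B lymphoid *Vpreb3*, *Igll1* and *Dntt* were at 0 in WT, so their direction was likewise fixed. Of 8 monocyte and macrophage markers 4 were higher and 1 lower (263 and 331), and of 5 T and NK cell markers 2 were higher and 1 lower (256 and 231). Among the higher ones, *Adgre1*, *Cd3g* and *Il2rb* were at 0 in WT as well. *Rag1*, *Cd3d*, *Cd3e*, *Hba-a1* and *Hbb-bt* were at 0 in both. The part of these cells in the values below was not tested, and in bulk RNA fewer cells of a type and less RNA per cell cannot be told apart.

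All 10 genes passed the filter of a mean of at least 1 CPM (counts scaled by the library total), which 12588 genes passed and which makes a gene tested here. *Dusp5* was lower by at least 2-fold in the library labelled Ezh2 KO, as were 3.90% of all genes tested, and *Dusp16* was higher by at least 2-fold, as were 4.91%, although that call did not hold with a pseudocount of 5 or a filter of 10 CPM. At a threshold of 1.5-fold, *Dusp1*, *Dusp5* and *Spry1* were lower, against 10.0% of all genes, and *Dusp16* alone was higher, against 10.5%. The other 6 genes lay within 1.5-fold, as did 79.5% of all genes. Counting noise widens the spread of scarce genes, so the same shares were taken over the 8083 genes with a mean of at least 100 normalized counts. Of these, 0.569% were lower and 0.482% higher by 2-fold, and 4.08% were lower and 3.15% higher by 1.5-fold. Of the 10 genes, 7 reached that level, and 3 of the 7 were lower by 1.5-fold and 0 higher. The 10 genes thus differed in direction. Their median log2 ratio was -0.03, beside -0.0032 over all genes, and became 0.0039 when the libraries were scaled by total gene counts. Individual ratios ran from -1.25 to 1.03, with 5 below 0 and 5 above, and 50.4% of all genes tested were below 0.

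**Figure D1:**
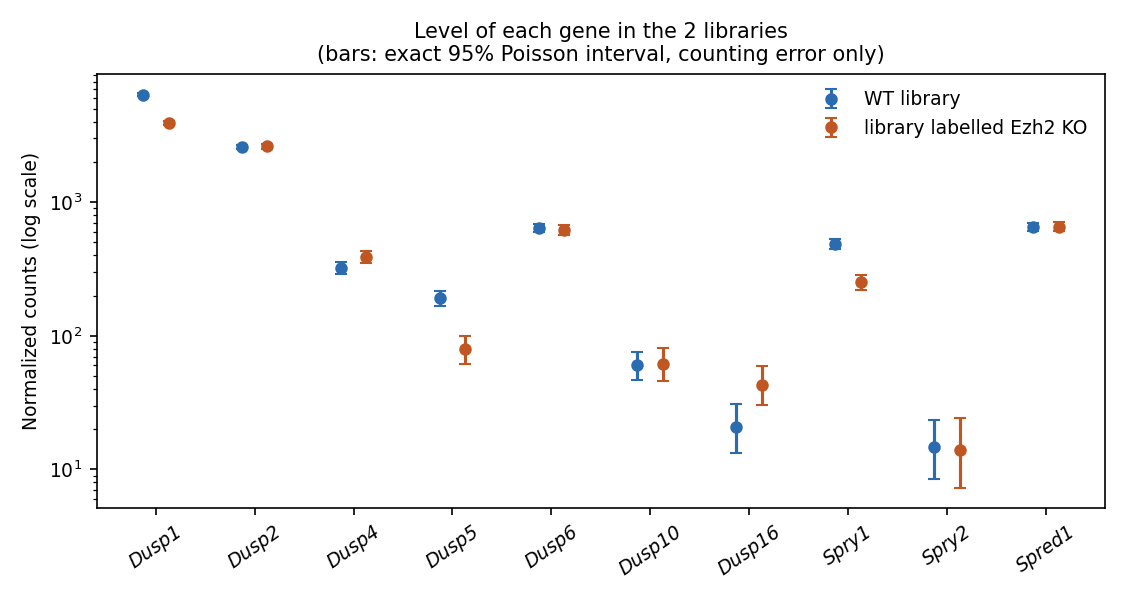
Normalized counts of the 10 genes on a log axis for each of the 2 libraries, WT and labelled Ezh2 KO, with exact 95% Poisson intervals as bars. *Dusp1*, *Dusp5* and *Spry1* sit lower in the library labelled Ezh2 KO, *Dusp16* sits higher, and most of the other pairs of points nearly coincide.

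*Dusp1*, *Dusp2*, *Dusp4* and *Dusp5* are the inducible nuclear phosphatases. They are early response genes whose proteins act on MAPKs in the nucleus, where DUSP5 is selective for ERK and DUSP1 acts mainly on p38 and JNK. *Dusp1* (chr17:26505590-26562128, minus strand) was the most abundant of the 10 and had 7448 counts in WT against 3337 in the library labelled Ezh2 KO. These were 6391.4 and 3888.6 normalized counts, with counting intervals that did not overlap. The log2 ratio was -0.72 (-0.78 to -0.66), or 1.64-fold lower. Only 0.953% of the genes in the same expression bin (1 of 10 equal bins of genes by mean level) had a lower ratio. *Dusp5* (chr19:53529109-53542431, plus strand) had the lowest ratio of the 10. Its counts were 222 in WT against 68 in the library labelled Ezh2 KO, which came to 190.5 and 79.2 normalized counts. The log2 ratio was -1.25 (-1.68 to -0.87), or 2.39-fold lower, and 0.238% of genes in its bin lay below it. An antisense gene overlaps an exon of *Dusp5* in the annotation, and since use of strand in the counting is not stated, reads of the pair cannot be told apart.

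*Dusp2* and *Dusp4* behaved otherwise. *Dusp2* (chr2:127336159-127338376, plus strand), which encodes a phosphatase prominent in blood cells, had 3039 counts in WT against 2245 in the other library. After scaling the values were 2607.9 and 2616.1, a log2 ratio of 0.0045 (-0.07 to 0.08), with an interval close around 0. *Dusp4* (chr8:34807297-34819894, plus strand) encodes a nuclear phosphatase for ERK and JNK and had 377 and 334 counts, or 323.5 and 389.2 normalized counts. Its ratio was slightly above 0 at 0.27 (0.05 to 0.48). That difference cleared counting error only, since 87.8% of the genes in its bin lay below it and the robust SD there was 0.25. Within this class, therefore, *Dusp1* and *Dusp5* were lower while *Dusp2* and *Dusp4* were not.

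Ratios of 2 genes within a library do not depend on the scaling between libraries. They restate the counts given above without that scaling and are not further evidence of the separation. There were 2.45 counts of *Dusp1* per count of *Dusp2* in WT (2.35 to 2.56) against 1.49 in the library labelled Ezh2 KO (1.41 to 1.57). On the log2 scale this ratio was lower by 0.72, with an interval of the difference of -0.82 to -0.62. For *Dusp5* the ratio to *Dusp2* counts was 0.0731 in WT against 0.0303 in the other library, a log2 difference of -1.27 (-1.69 to -0.86). These pairs were chosen after the values were known and are given as descriptions.

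**Figure D2:**
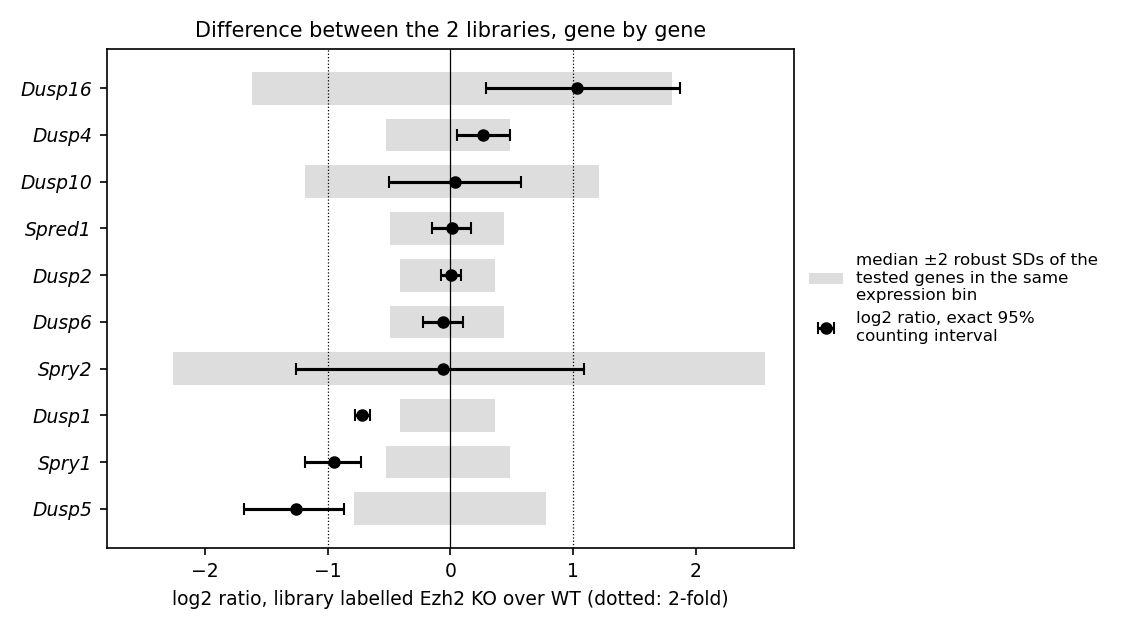
Log2 ratio of normalized counts, library labelled Ezh2 KO over WT, for each of the 10 genes with its exact 95% counting interval, over a band of the median ± 2 robust SDs of the tested genes in the same expression bin. *Dusp1*, *Dusp5* and *Spry1* lie below their bands, and *Dusp16*, at 1.03, lies inside its wide band.

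Promoters of *Dusp1*, *Dusp5* and *Dusp2* are printed because they set the 2 nuclear phosphatase genes that were lower beside the abundant one that was not. RefSeq promoter windows (GRCm38.p6, 250 bases before to 50 after the start) were found for 9 of the 10 genes, all except *Dusp4*. Both strands were searched for 4 motifs of factors downstream of MAPK and cAMP signals. These were the cAMP response element TGACGTCA, the AP-1 site TGANTCA, the EGR site GCGNGGGCG and the CArG box bound by serum response factor. Bases of a window from the first transcript start inside it onward were left out, and the rest is shown 5′ to 3′ on the strand of the gene, with motif matches in capitals. For *Dusp1* the annotation also holds a longer transcript that starts upstream of the window, at 26562128, so the stretch shown lies within the annotated gene, in an intron of that transcript.
*Dusp1*, chr17:26508520-26508722, minus strand: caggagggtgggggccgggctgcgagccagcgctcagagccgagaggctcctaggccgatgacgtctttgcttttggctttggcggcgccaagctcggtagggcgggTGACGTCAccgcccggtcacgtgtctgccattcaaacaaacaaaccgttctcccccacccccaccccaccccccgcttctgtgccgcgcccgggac
*Dusp5*, chr19:53528895-53529108, plus strand: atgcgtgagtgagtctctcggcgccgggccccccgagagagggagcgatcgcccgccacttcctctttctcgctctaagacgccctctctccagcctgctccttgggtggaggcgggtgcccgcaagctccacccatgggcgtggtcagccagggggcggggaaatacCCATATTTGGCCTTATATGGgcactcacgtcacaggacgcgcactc
*Dusp2*, chr2:127335909-127336158, plus strand: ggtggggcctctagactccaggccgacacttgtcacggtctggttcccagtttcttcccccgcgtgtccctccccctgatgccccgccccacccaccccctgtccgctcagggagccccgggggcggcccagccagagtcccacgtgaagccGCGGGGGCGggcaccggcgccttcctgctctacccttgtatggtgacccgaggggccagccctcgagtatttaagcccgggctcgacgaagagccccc

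The capitals mark a different motif in each promoter. Positions are counted from the RefSeq start. Between the end of the printed stretch and that start lie 47 bases for *Dusp1*, 36 for *Dusp5* and 0 for *Dusp2*. *Dusp1* held 1 cAMP response element, 143 to 136 bases before the start, a motif present in 1.79% of the 32851 windows and in no other of the 9. *Dusp5* held 2 adjoining CArG boxes, 82 to 73 and 72 to 63 bases before the start, and the motif was in 1.63% of all windows. *Dusp2* held 1 EGR site 98 to 90 bases before the start, and *Dusp16* held one on the opposite strand 138 to 130 bases before it, against 5.55% of all windows. The AP-1 site, in 7.81% of all windows, was in 0 of the 9. The promoter windows of *Dusp6*, *Dusp10*, *Spry1*, *Spry2* and *Spred1* held no match to the 4 motifs. A match describes letters in the window and was not tested as a binding site, and the motifs were chosen with the ratios known.

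*Dusp6* (chr10:99263231-99267489, plus strand) encodes the cytoplasmic phosphatase that is selective for ERK, and its transcript is widely used as a readout of ERK activity. It had 747 counts in WT against 529 in the library labelled Ezh2 KO, which came to 641.0 and 616.4 normalized counts. The log2 ratio was -0.06 (-0.22 to 0.11), close to the middle of its bin, where 44.5% of genes lay below it. The 2 ERK-selective phosphatases thus differed from each other, with 0.297 counts of *Dusp5* per count of *Dusp6* in WT against 0.129 in the other library, a log2 difference of -1.21 (-1.65 to -0.78).

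*Dusp10* and *Dusp16* encode phosphatases that act on JNK and p38 rather than ERK, and both were scarce. *Dusp10* (chr1:184013302-184075636, plus strand) had 70 counts in WT against 53 in the library labelled Ezh2 KO, which came to 60.1 and 61.8 normalized counts. Its log2 ratio was 0.04, with a wide interval of -0.50 to 0.58. *Dusp16* (chr6:134715468-134792625, minus strand) had 24 and 37 counts, or 20.6 and 43.1 normalized counts. The log2 ratio was 1.03 (0.29 to 1.87), or 2.04-fold higher. Among genes as scarce as *Dusp16*, however, the robust SD was 0.85 and 86.9% lay below it, so its ratio was within 2 robust SDs of its bin. The call past 2-fold was lost with a pseudocount of 5, at a log2 ratio of 0.91, and with a filter of a mean of at least 10 CPM, which *Dusp16* did not pass.

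*Spry1* (chr3:37639947-37644598, plus strand) encodes a Sprouty protein induced by growth factor signals that restrains signaling between receptor and RAF. It had 568 counts in WT against 216 in the library labelled Ezh2 KO, which came to 487.4 and 251.7 normalized counts. The log2 ratio was -0.95 (-1.19 to -0.72), or 1.93-fold lower, just short of 2-fold, and 0.397% of genes in its bin lay below it. In units of the robust SD of its bin, *Spry1* (3.75) and *Dusp1* (3.70) lay farther from 0 than *Dusp5* (3.22), although *Dusp5* had the larger fold. As at *Dusp5*, the annotation has a gene on the opposite strand that overlaps a *Spry1* exon, and its reads cannot be told apart.

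*Spry2* and *Spred1* did not follow *Spry1*. *Spry2* (chr14:105891947-105896819, minus strand), another Sprouty gene, had 17 and 12 counts, or 14.6 and 14.0 normalized counts. Its log2 ratio of -0.06 had an interval of -1.26 to 1.09, so a difference of 2-fold either way was not detectable at this depth. *Spred1* (chr2:117121374-117182279, plus strand) encodes a membrane protein that brings neurofibromin to RAS. It had 760 and 564 counts, or 652.2 and 657.2 normalized counts, a log2 ratio of 0.01 (-0.15 to 0.17). The ratio of *Spry1* to *Spred1* counts was 0.747 in WT (0.669 to 0.834) against 0.383 in the library labelled Ezh2 KO (0.326 to 0.449), a log2 difference of -0.96 (-1.25 to -0.68).

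**Figure D3:**
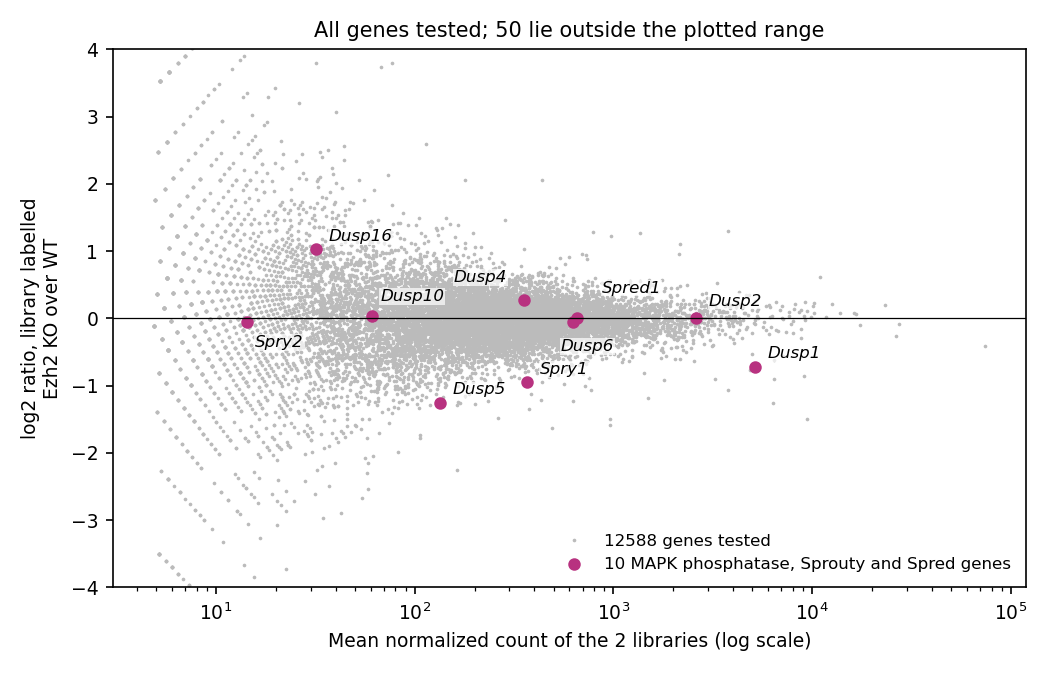
Log2 ratio, library labelled Ezh2 KO over WT, against the mean normalized count (log scale) for the 12588 genes tested, with the 10 genes in color and 50 genes outside the plotted range. *Dusp1*, *Dusp5* and *Spry1* lie at the lower edge of the cloud at their levels, whereas *Dusp16* and *Spry2* lie where scarce genes spread widely.

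Levels were compared between genes as RPKM, counts scaled by exon length and by the library total. *Dusp1* led in WT at 545 RPKM, followed by *Dusp2* at 326. Next came *Dusp6* at 46.3, *Spry1* at 33.9, *Dusp4* at 23.9, *Spred1* at 19.4 and *Dusp5* at 15.6 RPKM. *Dusp10* at 4.35, *Spry2* at 1.41 and *Dusp16* at 0.554 RPKM closed the order, and only *Spry2* and *Dusp16* had overlapping counting intervals as neighbors. In the library labelled Ezh2 KO, *Dusp1* at 338 RPKM (327 to 350) and *Dusp2* at 334 (320 to 348) no longer separated. That near tie depends on the exon lengths, since their counts there were 3337 and 2245. The lengths were 2373 bases for *Dusp1*, exons of its longer transcript included, and 1617 for *Dusp2*. *Spry1* stood at 17.9 RPKM, behind *Dusp4* at 29.3 and beside *Spred1* at 20.0, whose interval overlapped its own. *Dusp5* at 6.61 RPKM overlapped *Dusp10* at 4.57, and *Dusp6* kept the third place at 45.5. *Spry2* at 1.38 and *Dusp16* at 1.18 RPKM again overlapped. The order of the 10 thus differed in the place of *Spry1*, ahead of *Dusp4* and *Spred1* in WT and behind both in the other library.

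*Dusp1* also held the largest share of the summed counts in both libraries. The 10 genes together had 11389.3 normalized counts in WT against 8617.4 in the library labelled Ezh2 KO, giving a log2 ratio of -0.40 (-0.44 to -0.36). Without *Dusp1* the sums were 4997.8 and 4728.8, a log2 ratio of -0.08 (-0.14 to -0.02). Thus, most of the lower sum lay in one gene. The share of *Dusp1* in the raw counts of the 10 was 56.1% in WT (Wilson interval 55.3 to 57.0) and 45.1% in the other library (44.0 to 46.3). *Dusp2* took 22.9% and 30.4%, *Spred1* 5.73% and 7.63%, *Dusp6* 5.63% and 7.15%, and *Dusp4* 2.84% and 4.52%. A lower share of one gene raises the shares of the rest. The log2 ratios of *Dusp2*, *Spred1* and *Dusp6* themselves were 0.0045, 0.01 and -0.06. *Spred1* has long exons, and per kilobase of exon its share was 1.91% and 2.50%, below those of *Dusp6* (4.56% and 5.70%) and *Dusp4* (2.35% and 3.67%). Shares of *Spry1* were 4.28% and 2.92% and those of *Dusp5* 1.67% and 0.920%, respectively.

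**Figure D4:**
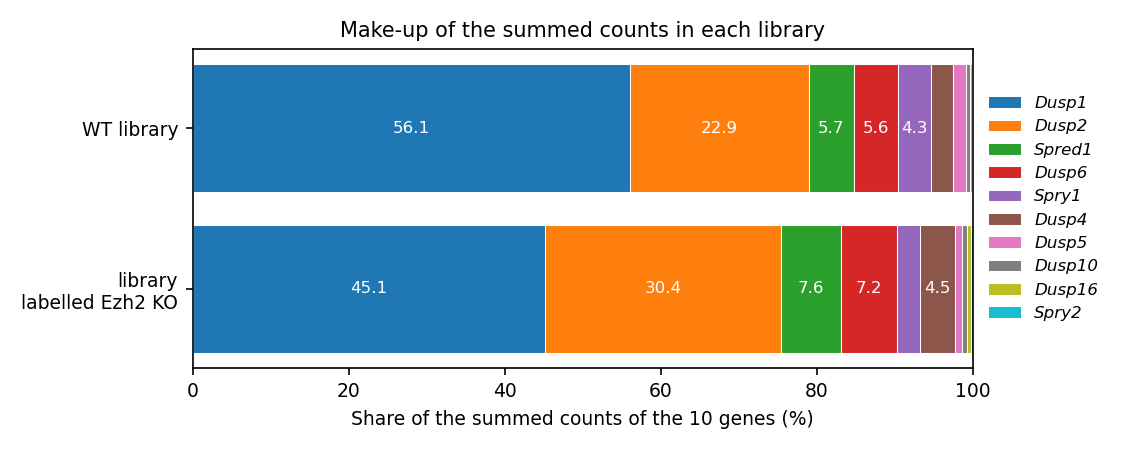
Stacked bars of the share of each gene in the summed raw counts of the 10 genes, in percent, 1 bar for each library, with no error bars. The *Dusp1* share is 56.1% in WT against 45.1% in the other library, and that of *Dusp2* is 22.9% and 30.4%. A lower share of one gene raises the shares of the rest.

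Other MAPK phosphatase, Sprouty and Spred genes were few and low. Of 7 such genes, 5 were tested, with 4 ratios below 0, 0 past 2-fold and a median log2 ratio of -0.48. For comparison, 50.4% of all genes tested had ratios below 0, and 3.90% were lower and 4.91% higher by 2-fold. *Dusp7*, for a cytoplasmic ERK phosphatase related to DUSP6, had 290 counts in WT against 153 in the library labelled Ezh2 KO, giving a log2 ratio of -0.48 (-0.77 to -0.19). *Spry4* had 88 and 45 counts, a log2 ratio of -0.52 (-1.08 to 0.01), and *Spred2* had 170 and 128, a log2 ratio of 0.03. These values were within 1.5-fold. *Dusp9* had 9 and 3 counts and *Spred3* 11 and 7, and *Dusp8* and *Spry3* were at 0 in both libraries. Of 12 tested genes listed as atypical dual-specificity phosphatases, which lack the MAPK docking domain, 0 were lower and 1 was higher by 2-fold, with a median of 0.06. Besides genes named *Dusp*, the list included *Styx*, *Ssh1*, *Ssh2* and *Ssh3*. The most abundant was *Dusp11* at 373.3 and 333.3 normalized counts, and the 1 higher gene, named after its values were seen, was *Dusp22* with 26 and 65 counts.

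The kinases and receptors on which these inhibitors act showed few differences of 2-fold, beside 3.90% lower and 4.91% higher over all genes tested. In the RAS and ERK cascade, 0 of 20 tested genes passed 2-fold in either direction and the median log2 ratio was -0.08. Its most abundant transcript, *Rps6ka1* for the ERK-activated kinase RSK1, was at 2220.0 and 2209.4 normalized counts. In the JNK and p38 cascade, 1 of 16 was lower and 1 higher, with a median of -0.04. The p38α gene *Mapk14* was at 1914.5 and 1872.6 normalized counts, and the genes past 2-fold, named after their values were seen, were *Mapk11* with 54 and 16 counts and *Mapk13* with 14 and 45. Among 15 other inhibitors of RAS and ERK signaling, the median was 0.04 and 0 were lower by 2-fold. The 1 higher gene, likewise named after its values were seen, was *Erf* with 26 and 40 counts. The RAF inhibitor gene *Pebp1* led this list at 3019.8 and 2719.8 normalized counts. Of 12 listed receptors that signal through RAS, 1 was lower and 0 higher by 2-fold, with a median of 0.17. The list holds *Flt3*, sorted as negative, and *Csf1r*, also listed as a monocyte and macrophage marker, so it is not limited to receptors of HSCs. The lower one, chosen after its values were seen, was *Csf1r* with 24 and 5 counts. At 1.5-fold, 2 receptors were lower and 3 higher, against 10.0% and 10.5% of all genes tested. Also named after their values were seen, the higher were *Flt3* (log2 ratio 0.95, 0.57 to 1.34), *Csf3r* (0.91, 0.74 to 1.09) and *Igf1r* (0.62, 0.40 to 0.85). The other lower one was *Il3ra* (-0.59, -1.31 to 0.07).

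Transcripts that ERK and serum response factor induce had medians below 0. Of all genes tested, 50.4% had ratios below 0, and 3.90% were lower and 4.91% higher by 2-fold. Of 10 tested ERK-responsive genes outside the 10 described here, 3 were lower by 2-fold and 0 higher, 9 had ratios below 0, and the median was -0.57. *Egr1*, an early response zinc finger factor, had 8942.7 normalized counts in WT against 3744.1 in the library labelled Ezh2 KO, giving a log2 ratio of -1.26 (-1.31 to -1.20). The other lower genes, named after their values were seen, were *Epha2* with 37 and 10 counts and *Egr2* with 18 and 0. *Egr2* passed the filter only through WT, so its direction was fixed. Of 17 tested AP-1 and serum response genes, 6 were lower by 2-fold and 0 higher, 16 had ratios below 0, and the median was -0.86. *Fos*, which encodes an AP-1 subunit, led that list at 13853 and 4892 normalized counts (log2 ratio -1.50). The antiproliferative gene *Btg2* had a log2 ratio of -1.63, the nuclear receptor gene *Nr4a1* -1.49, *Fosb* -1.08 and *Nr4a2* -1.05. These lists were written with earlier results of these libraries known and are not independent evidence of a direction. Not every abundant gene of these lists was lower. Named after their values were seen, *Myc* had 3074 counts in WT against 2805 in the other library and a log2 ratio of 0.31 (0.23 to 0.38), and the ETS factor gene *Etv5* had a log2 ratio of -0.07 (-0.22 to 0.08). Together the tested genes of these lists ran from -4.04 (*Egr2*) to 0.31 (*Myc*). The *Egr2* value rests on 0 counts in the library labelled Ezh2 KO and on the pseudocount, and the next lowest was *Btg2* at -1.63. With or without *Egr2*, the range is so wide that lying inside it does not relate a gene to the lists. Of the 10 genes, all but *Dusp16* (1.03) lay inside both ranges, whether lower, as *Dusp1*, *Dusp5* and *Spry1*, or between -0.06 and 0.27, as *Dusp2*, *Dusp4*, *Dusp6* and *Spred1*.

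**Figure D5:**
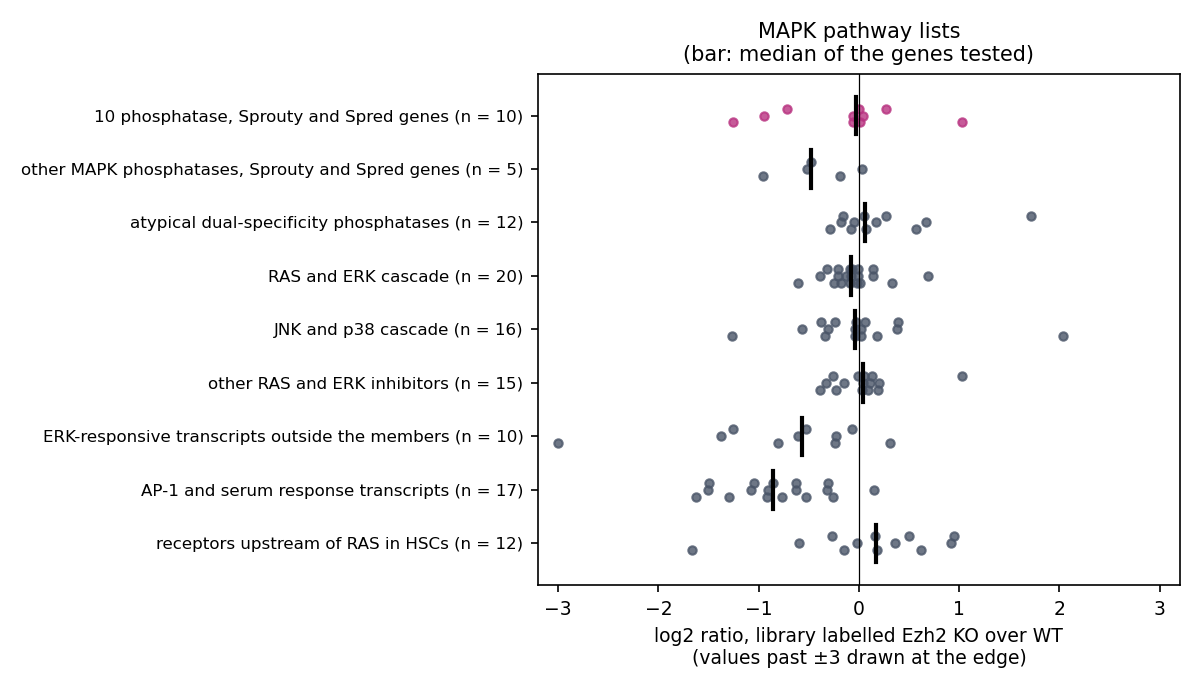
Log2 ratio, library labelled Ezh2 KO over WT, of each tested gene of the MAPK pathway lists, 1 point per gene, with a bar at the list's median and values past ± 3 drawn at the edge (*Egr2*). Medians of the AP-1 and ERK-responsive lists lie at -0.86 and -0.57, and that of the 10 genes at -0.03.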

How the data were processed

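Each library had 1 deposited file of read counts by gene symbol, left without normalization by the authors. Per the labels, RNA from sorted HSCs was amplified as cDNA with a SMARTer Ultra Low Input kit, and libraries were made with 8 PCR cycles and sequenced for 61 cycles. The submitters' processing notes name mm10, TopHat2 2.0.13, Bowtie2 2.1.0, StringTie, edgeR and bedtools. The counting program and its use of strand are not given in the sources used here. The 5 closing entries that name no gene (56.1% of all entries' reads in WT, 56.9% in the library labelled Ezh2 KO) were kept out of totals.

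Counts were divided by DESeq2 1.42.0 size factors (1.17 and 0.858, R 4.3.3), and log2 ratios, library labelled Ezh2 KO over WT, used a pseudocount of 1, which understates the change of low genes. A count of 3, taken as the floor, was 0.521 CPM in WT and 0.722 CPM in the other library. Genes with a mean of at least 1 CPM were tested, which here means compared by fold. With 1 library per group no model was fitted. Intervals are exact conditional binomial (Clopper-Pearson) intervals, and shares have 95% Wilson intervals. The robust SD was scaled from the median absolute deviation in each of 10 equal groups (bins) of genes by mean level. Exon lengths and positions are from GENCODE M21 (GRCm38, the assembly of mm10), and promoters from RefSeq. Calculations used matplotlib 3.10.9, pandas 2.3.3, scipy 1.17.1 and numpy 2.4.6 in Python 3.11.15, and the procedure was tested on simulated data.

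The 10 genes, the lists and the motifs were chosen with earlier results of these data known. From each list of related genes the text names all other phosphatase, Sprouty and Spred genes, genes past 2-fold with a mean of at least 50 normalized counts (at most 5) and the most abundant gene. One gene that this rule picks is not reported here. Alternatives were TMM (edgeR 4.0.16) and total-count scaling, pseudocounts of 0.5 and 5, other filters and other thresholds.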

Additional observations from a re-analysis of the deposited data

Results flagged for a closer look

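Among the entries that name no gene, which enter no comparison above, reads recorded as aligned to more than one place made up 12.3% of all entries' reads in the library labelled Ezh2 KO and 10.7% in WT, a gap beyond the counting intervals (12.25 to 12.29 and 10.73 to 10.77). The entry for reads not aligned was 0 in both libraries, so these are not shares of all reads sequenced. The share was picked out as a signal outside the gene counts that was above the level in WT.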

How the results depend on the processing

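Under TMM scaling, total-count scaling and pseudocounts of 0.5 and 5, none of the 10 log2 ratios changed sign. *Dusp1* ran from -0.72 to -0.69, *Dusp5* from -1.26 to -1.21, *Spry1* from -0.95 to -0.92 and *Dusp16* from 0.91 to 1.06. The number of the 10 genes called lower was 1 in the main setting, 3 at a 1.5-fold threshold, and 3 when a gene had to lie past 2 robust SDs of its expression bin. The number called higher was 1 and became 0 with a pseudocount of 5, with a filter of a mean of at least 10 CPM, and with the rule of 2 robust SDs. Over all genes, 491 were lower and 618 higher by 2-fold (55.7% of calls higher). With the filter of 10 CPM these became 115 and 96 (45.5% higher), without a filter 1098 and 1404, at 1.5-fold 1261 and 1321, and with the rule of 2 robust SDs 481 and 422 (46.7% higher). Counted per kilobase of exon, the shares of the 10-gene sum in WT and the other library moved past their intervals for 7 genes, to 53.6% and 42.4% for *Dusp1*, 32.1% and 41.8% for *Dusp2*, 2.35% and 3.67% for *Dusp4*, 4.56% and 5.70% for *Dusp6*, 0.0545% and 0.148% for *Dusp16*, 3.34% and 2.24% for *Spry1*, and 1.91% and 2.50% for *Spred1*, each with the same order of the 2 libraries. No paired analysis was possible because there was 1 library in each group, and for the same reason no library could be left out. Depth limits *Spry2*, *Dusp10* and *Dusp16* most.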
